A study of Homo sapiens with 18 samples.

Results

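The E2F and RB family genes described here are the transcription factor genes E2F1 to E2F8 and the pocket protein genes RB1 and RBL1. They were taken by gene name from the gene tables and make up 10 of the 23154 genes listed in either count table. The libraries are poly(A) RNA-seq of C4-2B, an established castration-resistant human prostate cancer line derived from LNCaP, so every group comes from 1 cell line. The study asked how AURKA inhibition, alone or with PARP inhibition, changes transcription in these cells. VIC-1911, the AURKA inhibitor, was given at 0.1 µM, and olaparib, the PARP inhibitor, at 1 µM. The 18 libraries form 6 groups of 3. After 2 days there were VEH (vehicle, DMSO) and VIC (VIC-1911) cells, and after 7 days there were VEH, VIC, OLA (olaparib) and COMBO (both drugs) cells. The labels do not say that replicates were separate cultures, so p-values measure the spread between libraries, which may be technical.

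E2F proteins bind the promoters of genes for DNA synthesis and cell division, most of them as dimers with a DP protein. E2F1, E2F2 and E2F3 are the activators. E2F4 and E2F5 repress together with pocket proteins, and E2F6 represses through Polycomb complexes without them. E2F7 and E2F8 are atypical repressors that bind DNA without a DP partner and are themselves transcribed as E2F targets. The pocket proteins RB1 and RBL1 (p107) hold E2Fs inactive until cyclin-dependent kinases phosphorylate them.

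Promoters of 4 members held the letters of an E2F site. The RefSeq promoter table (GRCh38.p14) spans 250 bases before to 50 after each start and listed E2F1, E2F2, E2F3, E2F4, E2F6, E2F7, RB1 and RBL1. The entry of RB1 lies inside the gene and was not used. E2F5 and E2F8 have no entry. Both strands were searched for TTTCCCGC, TTTCGCGC, TTTGCCGC and TTTGGCGC, which occur in 3.31% of 35116 promoters. E2F1 and RBL1 held 2 matches each, and E2F2 and E2F3 held 1 each. The windows below run from 120 bases before to 30 after the start, 5′ to 3′ on the gene's strand, with matches in capitals. They are shown because these 4 genes are the members whose own promoters carry the letters of the site, and E2F4 and E2F7 are shown beside them as windows without a match. A match is a run of letters, not a measured binding site.
E2F1, minus strand, chr20:33686356-33686505: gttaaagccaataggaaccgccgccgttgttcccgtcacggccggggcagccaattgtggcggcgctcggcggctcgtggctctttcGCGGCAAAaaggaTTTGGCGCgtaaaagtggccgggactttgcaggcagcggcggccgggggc
E2F2, minus strand, chr1:23531204-23531353: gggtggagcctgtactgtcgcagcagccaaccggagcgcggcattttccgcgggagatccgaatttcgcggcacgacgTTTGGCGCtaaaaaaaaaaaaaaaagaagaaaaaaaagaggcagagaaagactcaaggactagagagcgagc
E2F3, plus strand, first of 2 listed starts, chr6:20401759-20401908: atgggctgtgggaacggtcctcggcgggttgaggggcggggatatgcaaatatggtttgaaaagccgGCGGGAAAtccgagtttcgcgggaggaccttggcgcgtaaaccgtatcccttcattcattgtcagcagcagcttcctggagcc
RBL1, minus strand, chr20:37095968-37096117: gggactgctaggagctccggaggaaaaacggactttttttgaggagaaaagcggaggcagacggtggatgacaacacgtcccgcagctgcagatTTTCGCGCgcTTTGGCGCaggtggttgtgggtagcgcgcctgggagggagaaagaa
E2F4, plus strand, chr16:67192035-67192184: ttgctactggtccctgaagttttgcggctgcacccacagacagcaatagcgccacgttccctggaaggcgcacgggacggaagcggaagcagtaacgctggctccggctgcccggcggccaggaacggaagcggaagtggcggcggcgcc
E2F7, minus strand, chr12:77065540-77065689: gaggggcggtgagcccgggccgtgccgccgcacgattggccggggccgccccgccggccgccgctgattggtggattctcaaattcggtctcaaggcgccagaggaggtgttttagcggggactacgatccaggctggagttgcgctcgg

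In E2F1 the matches lay at −33 to −26 on the opposite strand and at −20 to −13, and in RBL1 at −26 to −19 and −16 to −9, counted from the start. In E2F2 the match lay at −42 to −35, and in E2F3 at −53 to −46 on the opposite strand. The CHR letters, TTTGAA or TTCGAA, are found in 16.4% of promoters, and among the members they were found in E2F3 alone. CCAAT, found in 34.6% of promoters, was present in E2F1, E2F3 and E2F7.

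In GRCh38.p14 the genes span chr20:33675477-33686385 (E2F1), chr1:23505212-23531233 (E2F2), chr6:20401879-20493714 (E2F3), chr16:67192155-67198918 (E2F4) and chr8:85177154-85214518 (E2F5). The others span chr2:11444375-11466161 (E2F6), chr12:77021251-77065569 (E2F7), chr11:19224063-19241655 (E2F8), chr13:48303751-48481890 (RB1) and chr20:36996349-37095997 (RBL1). E2F2, E2F3, E2F5, E2F8, RB1 and RBL1 overlap other annotated genes, among them RBIS at E2F5, the antisense gene CSRP3-AS1 at E2F8 and LPAR6 inside RB1. No source used here states whether reads were counted by strand, so reads of these overlaps cannot be told apart.

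Total counts per library ran from 3245273 to 7184420 at 2 days and from 4967931 to 19684208 at 7 days, and a member held between 31 and 1565 counts in a library. All 10 members passed the filter of at least 10 counts in 3 libraries in every fit. The labelled line was borne out by its markers. All 9 prostate markers had a median of at least 26.6 FPKM, and 7 of 11 markers of other cells, PTPRC, CD3E, PECAM1, COL1A2, DCN, KRT5 and TP63, stayed below 0.1 FPKM in every library. The 4 expressed ones were CD68, COL1A1, ACTA2 and VIM. The library numbers in the labels form 3 runs, one for the 2-day libraries, one for VEH and VIC at 7 days, and one for OLA and COMBO. A comparison of OLA or COMBO with VEH or VIC therefore crosses runs of library numbers, and drug and run cannot be told apart in it. VIC against VEH and COMBO against OLA lie within a run. Replicates of a group differed by a chi-square per degree of freedom of 1.26 to 3.13, except COMBO replicates 1 and 2 at 5.52 and VEH 7-day replicates 1 and 2 at 4.11, and calls lost without one of these libraries are given beside the result.

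Levels are given in FPKM (fragments per length of transcript and depth of library), which can be compared between genes. In VEH cells at 7 days E2F4 led with 23.8 ± 0.571 FPKM (SD, n = 3). E2F1 followed at 9.99 ± 1.24, RB1 at 7.26 ± 0.219, E2F3 at 6.72 ± 0.127 and E2F5 at 4.70 ± 0.303. Lowest were E2F6 at 2.94 ± 0.255, RBL1 at 2.36 ± 0.256, E2F7 at 1.46 ± 0.0866, E2F8 at 0.979 ± 0.114 and E2F2 at 0.613 ± 0.127 FPKM. No 2 neighbours in this order overlapped between their libraries. In VEH cells at 2 days E2F1 and E2F4 shared the top, at 25.8 ± 0.727 and 24.1 ± 3.03 FPKM, and their libraries overlapped. The 2-day order was otherwise RB1, E2F3, RBL1, E2F5, E2F8, E2F6, E2F7 and E2F2. There RBL1 overlapped E2F5, and E2F8, E2F6 and E2F7 overlapped in turn.

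The vehicle levels at the 2 times come from separate tables and library runs, so they are set side by side without a test, and time and run cannot be told apart. E2F8 stood at 3.63 FPKM at 2 days and at 0.979 at 7 days, a ratio of 0.269. E2F2 had a ratio of 0.338, E2F1 of 0.388, E2F7 of 0.432 and RBL1 of 0.462. RB1 and E2F3 came to 0.689 and 0.710, E2F6 to 0.812, E2F5 to 0.932 and E2F4 to 0.984. The genes with the lowest ratios were thus E2F1, E2F2, the atypical repressors and RBL1, while E2F4 and E2F5 overlapped between the times. In bulk RNA, fewer cells of a type and less RNA per cell cannot be told apart. Every effect of a drug below is taken against the vehicle of the same time.

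**Figure D1:**
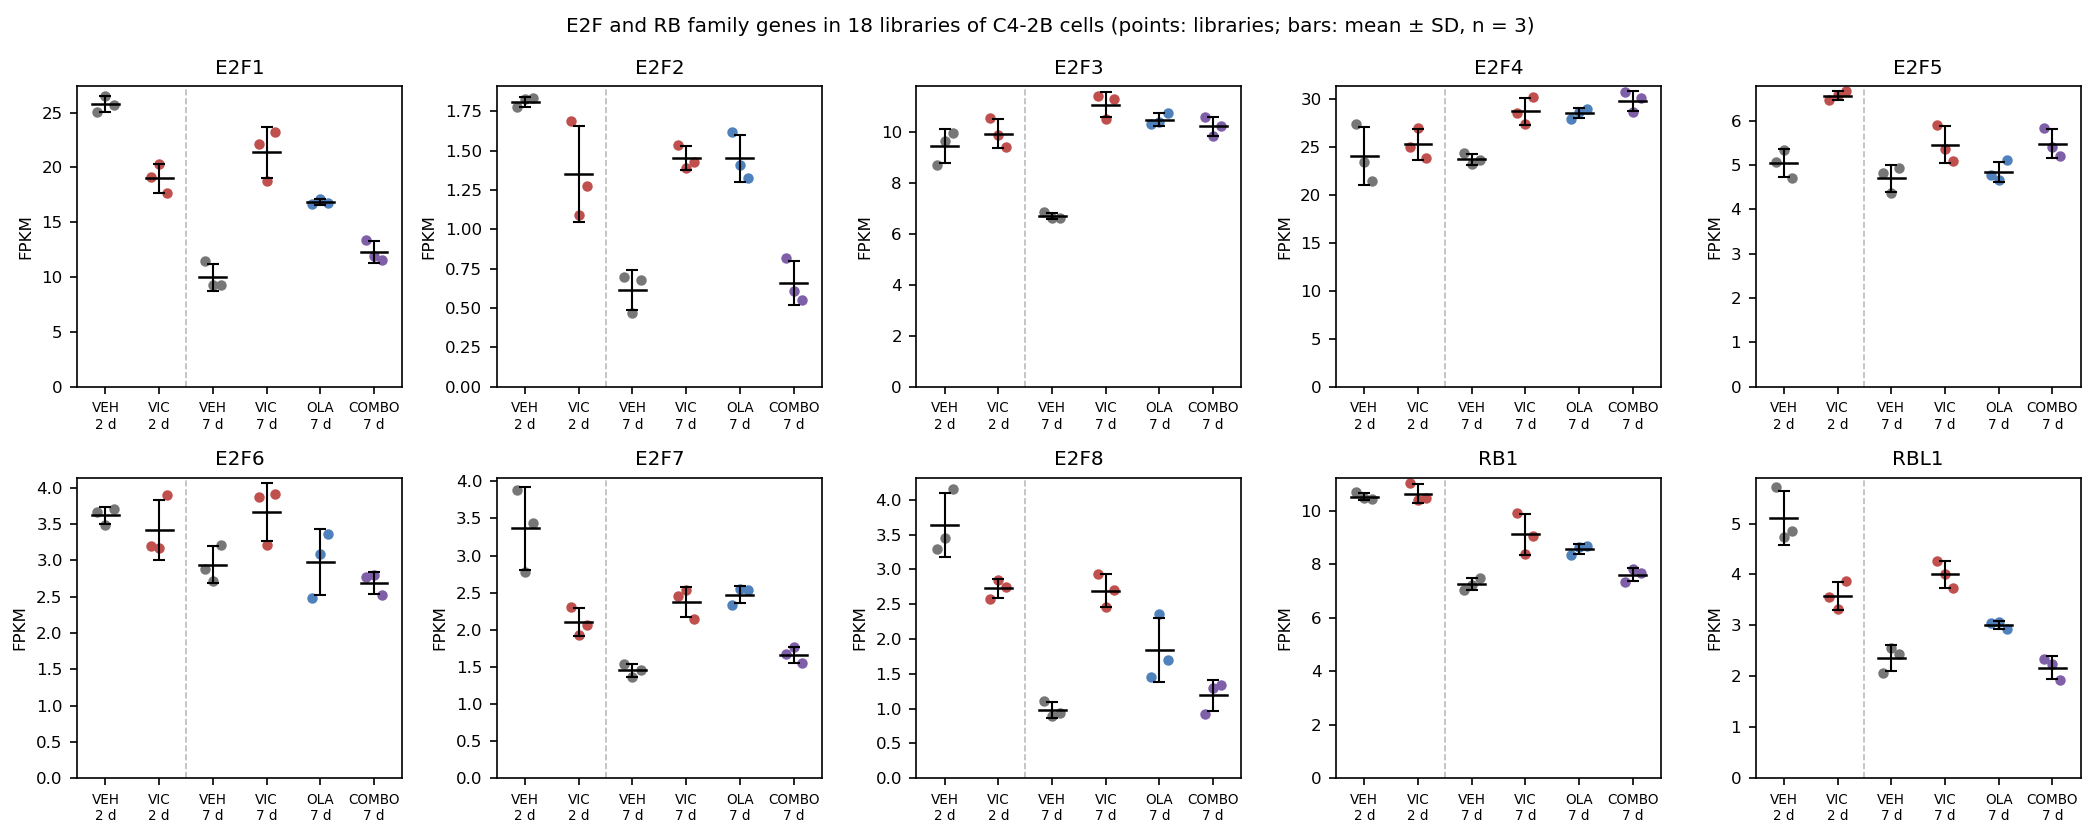
FPKM (y axis, linear from 0, one scale per gene) of the 10 genes in the 6 groups (x axis). Points are libraries and black bars the mean ± SD of 3 libraries. E2F1 is lower in VIC than in VEH at 2 days and higher at 7 days, and COMBO lies between VEH and the single drugs.

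VIC-1911 for 2 days lowered part of the family. E2F1, E2F7, E2F8 and RBL1 fell and E2F5 rose, and the other 5 members did not pass the test. Over all 12241 genes tested, 7.5% were called higher and 7.19% lower, at an adjusted p under 0.05 by edgeR's quasi-likelihood test with Benjamini-Hochberg adjustment over all genes, the rule used throughout.

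E2F1 measured 25.1, 26.5 and 25.7 FPKM in the VEH libraries and 19.1, 20.3 and 17.7 in the VIC libraries. The groups did not overlap. Its log2 fold change was −0.43 ± 0.07 (SE, adjusted p = 1.34e-05). E2F7 measured 3.88, 2.78 and 3.44 FPKM in VEH and 2.30, 1.93 and 2.07 in VIC cells, also without overlap, a log2 fold change of −0.63 ± 0.13 (adjusted p = 0.000442). RBL1 measured 5.71, 4.74 and 4.86 FPKM in VEH and 3.55, 3.32 and 3.87 in VIC cells, at −0.49 ± 0.10 (adjusted p = 0.00069). Each VIC library of these 3 genes lay below each VEH library.

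E2F8 and E2F5 passed more narrowly. E2F8 went from 3.29, 3.45 and 4.16 FPKM to 2.58, 2.85 and 2.75, with a log2 fold change of −0.42 ± 0.14 (adjusted p = 0.0313). E2F5 went from 5.07, 5.34 and 4.72 FPKM to 6.45, 6.57 and 6.66, at 0.44 ± 0.15 (adjusted p = 0.0348). Neither gene overlapped between the groups. DESeq2 called neither, with adjusted p of 0.188 for E2F8 and 0.192 for E2F5, and limma on log2(FPKM + 0.1) did not call E2F8 (0.0857). Without VEH replicate 3 they reached 0.233 and 0.201. Leaving out VIC replicate 1, 2 or 3 ended both calls as well, with adjusted p of 0.104, 0.0515 and 0.0674 for E2F8 and of 0.0817, 0.0706 and 0.0616 for E2F5. Without VEH replicate 1, E2F5 came to 0.0635.

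E2F2, the least abundant activator, measured 1.77, 1.83 and 1.83 FPKM in VEH and 1.69, 1.09 and 1.28 in VIC cells. Its groups did not overlap, but its log2 fold change of −0.40 ± 0.17 missed the threshold (adjusted p = 0.12), and without VIC replicate 1 it passed (adjusted p = 0.0462). The remaining members lay close to their vehicle, with log2 fold changes of 0.03 for E2F3, 0.13 for E2F4, −0.05 for E2F6 and 0.02 for RB1. Their 95% intervals ran from −0.12 to 0.18, from −0.03 to 0.29, from −0.33 to 0.23 and from −0.13 to 0.17.

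After 7 days of VIC-1911 the family stood higher than in vehicle cells. E2F1, E2F2, E2F3, E2F4, E2F6, E2F7, E2F8, RB1 and RBL1 rose, 9 of the 10 members, and none fell. Of the 14409 genes tested 26.7% were called higher and 25.7% lower.

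Among the activators, E2F1 measured 11.4, 9.24 and 9.32 FPKM in VEH and 22.1, 18.8 and 23.2 in VIC cells, 2.06-fold higher in the edgeR fit (log2 1.04 ± 0.08, adjusted p = 3.44e-12). E2F2 measured 0.695, 0.467 and 0.677 FPKM in VEH and 1.54, 1.39 and 1.43 in VIC cells, 2.36-fold higher (log2 1.24 ± 0.16, adjusted p = 2.43e-07). E2F3 measured 6.87, 6.64 and 6.65 FPKM in VEH and 11.4, 10.5 and 11.3 in VIC cells, 1.597-fold higher (log2 0.68 ± 0.06, adjusted p = 3.75e-11). For each activator the lowest VIC library lay well above the highest VEH library.

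E2F4, E2F5 and E2F6 changed less. E2F4 measured 24.4, 23.3 and 23.6 FPKM in VEH and 28.6, 27.4 and 30.2 in VIC cells, without overlap (log2 0.23 ± 0.05, adjusted p = 0.00065). E2F6 measured 2.88, 2.72 and 3.22 FPKM in VEH and 3.87, 3.21 and 3.92 in VIC cells, and the groups overlapped (log2 0.30 ± 0.11, adjusted p = 0.0234). The call of E2F6 was lost under DESeq2 (adjusted p = 0.0586) and limma on log2(FPKM + 0.1) (0.0528), and also without VEH replicate 1 (0.0693), VEH replicate 2 (0.149), VIC replicate 1 (0.0747) or VIC replicate 3 (0.126). E2F5 measured 4.81, 4.36 and 4.94 FPKM in VEH and 5.91, 5.36 and 5.09 in VIC cells and did not pass (log2 0.17 ± 0.11, adjusted p = 0.181), though limma on log2(FPKM + 0.1) called it higher (adjusted p = 0.0408).

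The atypical repressors rose as well. E2F8 measured 1.11, 0.888 and 0.942 FPKM in VEH and 2.93, 2.46 and 2.70 in VIC cells, 2.65-fold higher, the largest change of the 10 members in this comparison (log2 1.41 ± 0.16, adjusted p = 1.34e-08). E2F7 measured 1.54, 1.37 and 1.46 FPKM in VEH and 2.45, 2.54 and 2.15 in VIC cells (log2 0.66 ± 0.10, adjusted p = 3.12e-06). Of the pocket proteins, RBL1 measured 2.07, 2.56 and 2.44 FPKM in VEH and 4.27, 4.003 and 3.73 in VIC cells (log2 0.71 ± 0.09, adjusted p = 1.48e-07). RB1 changed less, from 7.05, 7.24 and 7.48 FPKM to 9.91, 8.40 and 9.07 (log2 0.29 ± 0.06, adjusted p = 0.00038). None of these 4 genes overlapped between VEH and VIC cells.

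The effect of VIC-1911 differed between the times for 6 members, E2F1, E2F2, E2F3, E2F7, E2F8 and RBL1. The difference was tested as the log2 fold change at 7 days less that at 2 days, in 1 fit over 13832 genes, of which 14.6% were higher and 14.2% lower at 7 days. It was 1.46 ± 0.11 for E2F1 (adjusted p = 3.83e-15), 1.81 ± 0.20 for E2F8 (adjusted p = 2.31e-10), 1.63 ± 0.24 for E2F2 (adjusted p = 6.52e-07) and 1.27 ± 0.17 for E2F7 (adjusted p = 3.27e-08). For RBL1 it was 1.19 ± 0.14 (adjusted p = 2.61e-09) and for E2F3 0.63 ± 0.10 (adjusted p = 9.06e-07). E2F1, E2F7, E2F8 and RBL1 were called in opposite directions at the 2 times. Their mean FPKM in VIC cells at 2 and 7 days was 19.0 and 21.4 for E2F1 and 2.10 and 2.38 for E2F7. It was 2.73 and 2.70 for E2F8 and 3.58 and 4.0002 for RBL1. In vehicle cells it was 25.8 and 9.99 for E2F1 and 3.37 and 1.46 for E2F7. For E2F8 it was 3.63 and 0.979, and for RBL1 5.10 and 2.36. For each gene the VIC libraries of the 2 times overlapped and the vehicle libraries did not, and the share of all genes with this pattern was not counted. These levels were not tested, and time and run cannot be told apart. RB1 narrowly missed the threshold (0.25 ± 0.10, adjusted p = 0.0532), and passed with RLE size factors (0.0402), with library size only (0.0174) and in limma on log2(FPKM + 0.1) (0.0198). It also passed without VIC 2-day replicate 1 (0.0464), without VEH 7-day replicate 2 (0.0346) or 3 (0.0492), and without VIC 7-day replicate 2 (0.0102). The differences of E2F4, E2F5 and E2F6 were 0.09, −0.28 and 0.34, with 95% intervals from −0.11 to 0.28, from −0.66 to 0.09 and from −0.03 to 0.70.

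After 7 days of olaparib most of the family also stood higher than in vehicle cells. All members except E2F5 and E2F6 were higher than in the same VEH libraries, 8 of 10, against 28.1% of all genes called higher and 25.9% lower. This comparison and that of VIC-1911 share their controls, so each is given by its own values. OLA and VEH belong to different runs of library numbers, so drug and run cannot be told apart here.

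E2F1 measured 16.6, 17.1 and 16.7 FPKM in OLA cells, above every VEH library (log2 0.73 ± 0.08, adjusted p = 9.7e-09). E2F2 measured 1.62, 1.41 and 1.33 FPKM (log2 1.23 ± 0.16, adjusted p = 2.81e-07). E2F3 measured 10.3, 10.4 and 10.8 FPKM (log2 0.63 ± 0.06, adjusted p = 1.89e-10). The 3 activators thus stood clear of vehicle in each OLA library.

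Of the atypical repressors, E2F7 measured 2.34, 2.55 and 2.53 FPKM (log2 0.77 ± 0.10, adjusted p = 2.03e-07). E2F8 spread more widely, at 1.46, 2.36 and 1.70 FPKM, with replicate 2 highest, and still did not overlap vehicle (log2 0.95 ± 0.17, adjusted p = 1.8e-05). E2F4, the main repressor by level, measured 27.99, 28.7 and 29.0 FPKM (log2 0.25 ± 0.05, adjusted p = 0.000277). E2F5 measured 4.76, 4.67 and 5.11 FPKM and E2F6 2.48, 3.09 and 3.36, both overlapping vehicle, with log2 fold changes of 0.05 (95% interval −0.17 to 0.27) and 0.08 (−0.15 to 0.31). RB1 measured 8.35, 8.66 and 8.68 FPKM (log2 0.23 ± 0.06, adjusted p = 0.00306). RBL1 measured 3.05, 3.06 and 2.92 FPKM (log2 0.33 ± 0.10, adjusted p = 0.00428), and its call was lost without VEH replicate 1 (adjusted p = 0.0749).

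With both drugs for 7 days most members lay near vehicle, in a comparison that again crosses runs of library numbers. E2F1, E2F3 and E2F4 were higher in COMBO than in VEH cells and the other 7 members did not pass, while 28.6% of all genes were called higher and 28% lower, so 3 of 10 was close to the background.

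E2F1 measured 13.4, 11.9 and 11.6 FPKM in COMBO cells (log2 0.29 ± 0.08, adjusted p = 0.00339), just above the VEH libraries. Without VEH replicate 2 it did not pass (adjusted p = 0.0648). E2F3 measured 10.6, 9.87 and 10.3 FPKM (log2 0.61 ± 0.06, adjusted p = 2.23e-10) and E2F4 30.7, 28.7 and 30.2 (log2 0.33 ± 0.05, adjusted p = 5.09e-06). These 2 genes stayed clear of vehicle in every COMBO library. Values of E2F2 were 0.819, 0.611 and 0.552 FPKM (log2 0.17, 95% interval −0.20 to 0.54). Values of E2F7 were 1.67, 1.77 and 1.56 FPKM (log2 0.19, −0.02 to 0.41) and of E2F8 0.929, 1.299 and 1.34 (log2 0.26, −0.11 to 0.62). E2F5 measured 5.84, 5.40 and 5.19 FPKM and fell just short (log2 0.24 ± 0.10, adjusted p = 0.0558). With library size only it passed (adjusted p = 0.02), as did E2F7 (adjusted p = 0.0491). E2F6 measured 2.77, 2.80 and 2.52 FPKM (log2 −0.11, −0.34 to 0.12), RB1 7.34, 7.84 and 7.68 (log2 0.07, −0.06 to 0.20) and RBL1 2.34, 2.25 and 1.93 (log2 −0.12, −0.32 to 0.08).

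Set against olaparib alone, COMBO cells had lower E2F1, E2F2, E2F7, E2F8 and RBL1, 5 of 10 members, and none higher. Over all genes 6.95% were called lower and 4.55% higher. Both groups belong to the same run of library numbers. The log2 fold change was −1.06 ± 0.16 for E2F2 (adjusted p = 2.37e-05), −0.58 ± 0.10 for E2F7 (adjusted p = 0.000129), −0.44 ± 0.08 for E2F1 (adjusted p = 0.000263) and −0.45 ± 0.09 for RBL1 (adjusted p = 0.00166). The libraries of these genes did not overlap. E2F8 was lower by edgeR (−0.70 ± 0.16, adjusted p = 0.00316). Without OLA replicate 2, its highest OLA library, it did not pass (adjusted p = 0.0907), nor did it in limma on log2(FPKM + 0.1) (0.0846). E2F3 and E2F4 overlapped between the groups, with log2 fold changes of −0.02 (95% interval −0.13 to 0.09) and 0.08 (−0.03 to 0.19). E2F5 differed by 0.19 (−0.02 to 0.40), E2F6 by −0.19 (−0.41 to 0.04) and RB1, whose libraries did not overlap, by −0.16 (−0.29 to −0.03, adjusted p = 0.0938).

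Set against VIC-1911 alone, 7 of 10 members were lower with the combination and none higher, beside 22.2% of all genes called lower and 20.7% higher. COMBO and VIC belong to different runs of library numbers. E2F8 differed most, at −1.15 ± 0.15 (adjusted p = 3.07e-07), followed by E2F2 at −1.07 ± 0.16 (adjusted p = 1.97e-06), RBL1 at −0.83 ± 0.09 (adjusted p = 1.4e-08) and E2F1 at −0.75 ± 0.08 (adjusted p = 2.52e-09). E2F7 was at −0.47 ± 0.10 (adjusted p = 0.000268) and E2F6 at −0.40 ± 0.11 (adjusted p = 0.00315). RB1, at −0.22 ± 0.06 (adjusted p = 0.00559), did not pass without VIC replicate 1 (adjusted p = 0.0562). E2F3, E2F4 and E2F5 overlapped between the groups, with log2 fold changes of −0.07 (95% interval −0.18 to 0.04), 0.10 (−0.01 to 0.20) and 0.06 (−0.15 to 0.27). With library size only E2F4 passed as higher (adjusted p = 0.0482).

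**Figure D2:**
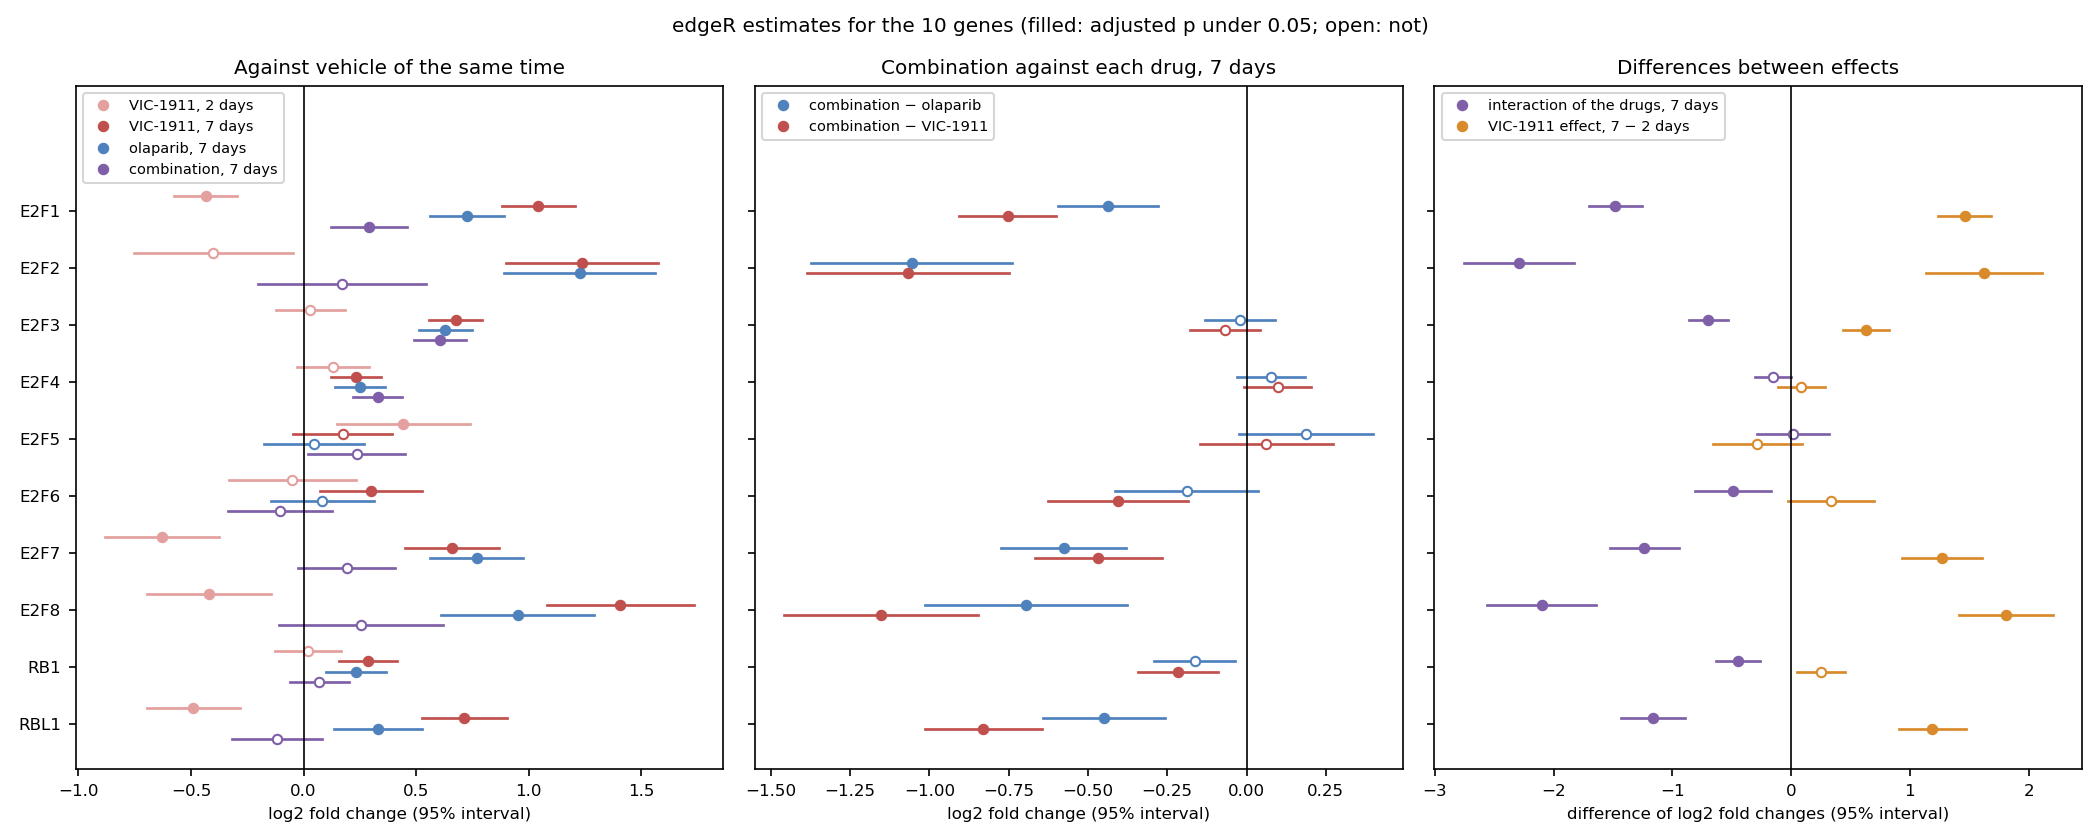
edgeR log2 fold changes (x axes) of the 10 genes (y axis) with 95% intervals, filled where the adjusted p is under 0.05. The left panel shows each treatment against vehicle of the same time, the middle panel the combination against each drug, and the right panel the drug interaction and the change of the VIC-1911 effect with time. The interaction estimates of E2F2 and E2F8 lie below −2.

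The interaction of the drugs was tested as the effect of VIC-1911 with olaparib less its effect without, each within its own run of library numbers. It was called below 0 for 8 members, all but E2F4 and E2F5, against 22.9% of all genes lower and 21% higher. Where the separate fold changes simply multiplied, E2F1 would have stood at 36.0 FPKM in COMBO cells, and its mean was 12.3. E2F2 would have stood at 3.44 and was at 0.661, and E2F8 would have stood at 5.07 and was at 1.19 FPKM. In log2 terms the interaction was −2.29 ± 0.23 for E2F2 (adjusted p = 1.6e-09), −2.10 ± 0.22 for E2F8 (adjusted p = 6.9e-09) and −1.48 ± 0.11 for E2F1 (adjusted p = 4.73e-12).

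E2F7 and RBL1 followed at −1.24 ± 0.14 (adjusted p = 2.42e-08) and −1.16 ± 0.13 (adjusted p = 2.29e-08). The interaction of E2F3 was −0.70 ± 0.08 (adjusted p = 2.14e-08), where multiplied fold changes would have given 17.3 FPKM and COMBO cells had 10.3. RB1 was at −0.45 ± 0.09 (adjusted p = 0.000143). E2F6, at −0.49 ± 0.16 (adjusted p = 0.0118), did not pass in limma on log2(FPKM + 0.1) (0.0616) or without OLA replicate 3 (0.0702). E2F4 was at −0.15 (95% interval −0.31 to 0.00118) and passed only under limma (adjusted p = 0.0179 with a pseudocount of 0.1 FPKM and 0.0174 with 1). E2F5 was at 0.01 (−0.29 to 0.32).

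Summed by role, the group means of the activators ranged more widely over the 6 groups than those of the pocket-dependent and Polycomb-linked repressors. E2F1, E2F2 and E2F3 together came to 37.0 ± 1.297 FPKM in VEH and 30.3 ± 1.72 in VIC cells at 2 days (SD, n = 3). At 7 days they came to 17.3 ± 1.45 in VEH, 33.9 ± 2.81 in VIC, 28.8 ± 0.204 in OLA and 23.2 ± 1.41 in COMBO cells. No 2 groups at 7 days overlapped, and the nearest were VIC and OLA, with a lowest VIC library of 30.7 and a highest OLA library of 29.0. E2F4, E2F5 and E2F6 together stayed between 29.9 and 39.4 FPKM in all 18 libraries, with means of 32.8 and 35.3 at 2 days and of 31.4, 37.9, 36.4 and 38.1 in VEH, VIC, OLA and COMBO cells at 7 days. At 7 days the highest VEH library held 32.1 FPKM and the lowest treated library, from OLA cells, 35.2. Both this sum and that of the activators were thus higher in COMBO than in VEH cells. E2F7 and E2F8 together came to 7.00 ± 0.701 and 4.83 ± 0.0534 FPKM at 2 days and 2.43 ± 0.197, 5.07 ± 0.274, 4.31 ± 0.555 and 2.86 ± 0.239 in the 7-day groups, with VEH and COMBO libraries overlapping at 7 days. Relative to the activators, the atypical repressors had mean ratios from 0.124 in COMBO to 0.189 in 2-day VEH cells.

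The ratio of activators to all repressors, E2F4 to E2F8, was 0.936 ± 0.100 in VEH and 0.756 ± 0.0354 in VIC cells at 2 days, and the highest VIC library, 0.793, lay below the lowest VEH library, 0.820. At 7 days it was 0.512 ± 0.0314 in VEH, 0.789 ± 0.0350 in VIC, 0.708 ± 0.0211 in OLA and 0.567 ± 0.0223 in COMBO cells. Each 7-day group was separate from the others in this ratio, the COMBO libraries, from 0.549 to 0.592, being just above the highest VEH library at 0.547. On TMM-scaled counts, which are not per length, VEH and VIC libraries overlapped at 2 days, and VIC and OLA libraries at 7 days. These sums rest mainly on 2 genes, since E2F1 and E2F4 together made up most of the summed E2F FPKM. E2F1 held 33.6% of summed E2F FPKM in 2-day VEH cells and 19.5% in 7-day VEH cells, and E2F4 held 31.4% and 46.5%. In VIC, OLA and COMBO cells at 7 days E2F1 held 27.8%, 24.2% and 19.2%. The sums are given without a test.

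**Figure D3:**
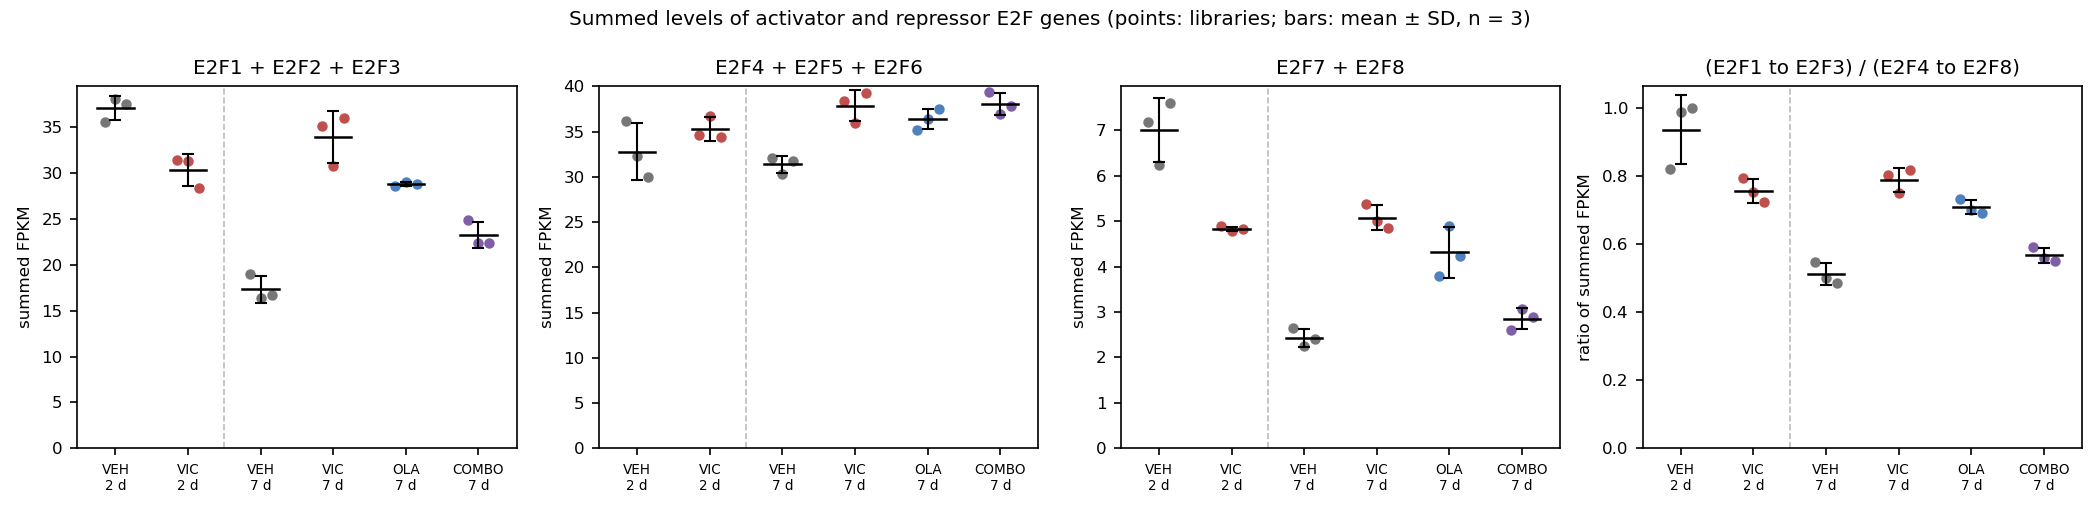
Summed FPKM of E2F1 to E2F3, of E2F4 to E2F6 and of E2F7 and E2F8, and the ratio of the activators to all repressors (y axes, linear from 0), in the 6 groups (x axis). Points are libraries and bars the mean ± SD of 3. The ratio is lowest in 7-day VEH cells, and the COMBO libraries lie just above them. At 7 days the sum of E2F4 to E2F6 is higher in every treated library than in every VEH library.

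The DP partners and RBL2 (p130), the third pocket protein, which partners E2F4 in resting cells, were followed as the nearest relatives. With either single drug at 7 days RBL2 fell where RB1 and RBL1 rose. It measured 29.7, 29.6 and 30.2 FPKM in 7-day VEH cells, 20.8, 21.3 and 21.0 in VIC, 22.1, 20.1 and 21.6 in OLA and 18.8, 21.4 and 20.01 in COMBO cells. Every treated library was below every vehicle library, and the log2 fold changes were −0.55 ± 0.05 with VIC-1911 (adjusted p = 2.62e-10), −0.51 ± 0.05 with olaparib (adjusted p = 1.18e-09) and −0.58 ± 0.05 with both (adjusted p = 5.84e-11). At 2 days it was at −0.04 ± 0.06 (adjusted p = 0.742). The interaction for RBL2 was above 0, at 0.48 ± 0.07 (adjusted p = 2.93e-06). The ratio of RBL1 to RBL2 was 0.0790 ± 0.00865 in 7-day VEH cells, 0.190 ± 0.0136 in VIC, 0.142 ± 0.00911 in OLA and 0.109 ± 0.0145 in COMBO cells. TFDP1, which encodes the main DP partner, was higher with VIC-1911 at 7 days (0.47 ± 0.06, adjusted p = 4.09e-08), with olaparib (0.30 ± 0.06, adjusted p = 5.48e-05) and with both (0.20 ± 0.06, adjusted p = 0.0029), and TFDP2 rose by 0.32, 0.59 and 0.66. TFDP3 was listed at 0 FPKM in every library.

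Genes known to be switched on by E2F at the start of DNA synthesis were taken as a list of 49, all tested. It holds MYBL2, TFDP1, CCNE1, CCNE2 and CDC25A, which also stand in other lists below. With VIC-1911 at 2 days 28 fell, 1 rose and 20 did not pass (median log2 fold change −0.24, against 0.00 over all genes). TK1 (−0.47, adjusted p = 2.87e-08), MYBL2 (−0.39) and DUT (−0.44) had the smallest p. With VIC-1911 at 7 days 46 rose and none fell (median 0.91, against −0.01), and by smallest adjusted p these were led by the helicase gene MCM4 (1.33 ± 0.06, adjusted p = 4.55e-18), the ribonucleotide reductase gene RRM2 (1.37) and MCM2 (1.05). The difference between the times was called higher for 48 (median 1.13, against −0.01). Of all genes, 7.19% were called lower and 7.5% higher with VIC-1911 at 2 days, and 25.7% and 26.7% at 7 days. In the difference the shares were 14.2% lower and 14.6% higher.

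With olaparib 45 of the 49 rose and 1 fell (median 0.59, against 0.01 over all genes). With the combination 27 rose, 6 fell and 16 did not pass (median 0.19, against 0.00). EZH2, a Polycomb gene, was among those that fell (−0.75 ± 0.07, adjusted p = 5.59e-11), while MCM4 (0.59) and PCNA (0.78) rose. Against olaparib alone the combination lowered 42 and raised none (median −0.40, against 0.00), and against VIC-1911 alone it lowered 47 and raised none (median −0.65, against 0.01). The interaction was called lower for 47 (median −1.25, against 0.01), with RRM2 at −2.26 and MYBL2 at −2.40. Of all genes, 28.1% were called higher and 25.9% lower with olaparib, and 28.6% and 28% with the combination. The shares called lower were 6.95% for the combination against olaparib, 22.2% for it against VIC-1911 and 22.9% in the interaction. E2F1, E2F2, E2F7, E2F8 and RBL1 lay within the range of these targets in each comparison with vehicle at 7 days. At 2 days E2F7 (−0.63) lay below the lowest target, POLE2 (−0.58), and in the combination against olaparib E2F2 (−1.06) lay below the lowest, RRM2 (−0.89).

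**Figure D4:**
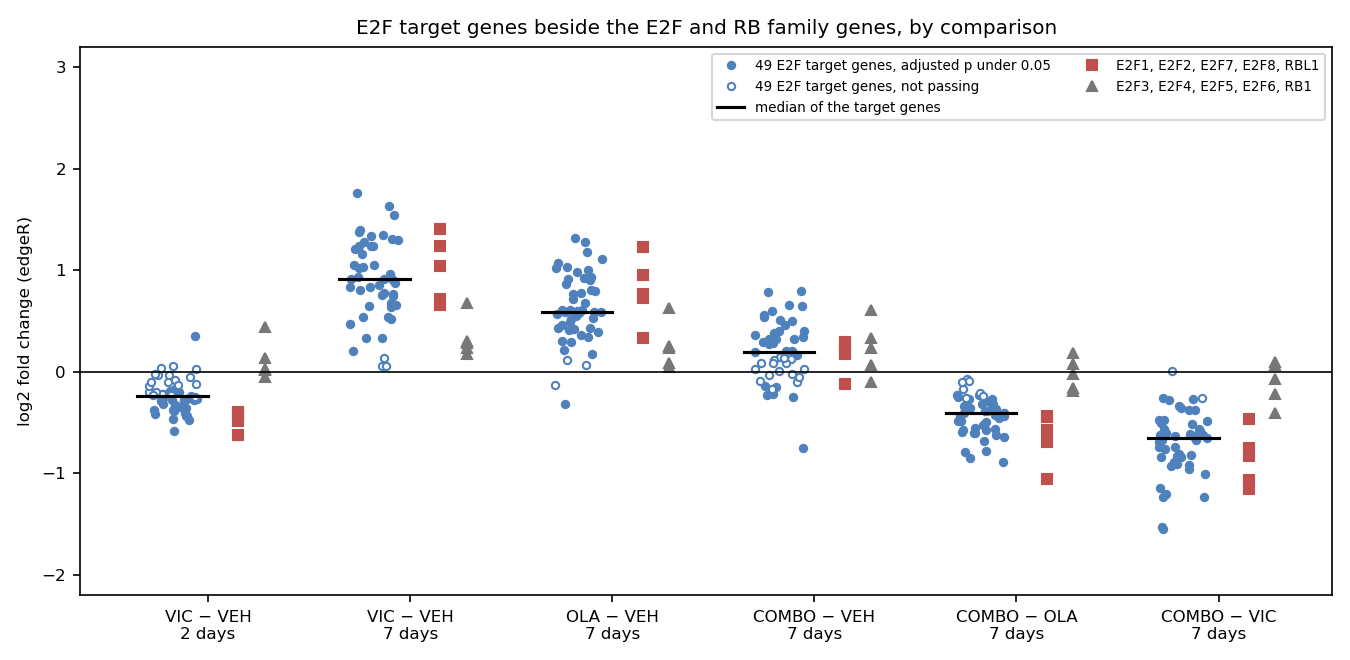
edgeR log2 fold changes (y axis) in 6 comparisons (x axis) of the 49 E2F target genes (circles, filled where the adjusted p is under 0.05), with their median as a black line, beside the members (squares for E2F1, E2F2, E2F7, E2F8 and RBL1, triangles for E2F3, E2F4, E2F5, E2F6 and RB1). The targets lie mostly above 0 with each single drug at 7 days and mostly below 0 where the combination is set against a single drug.

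The counts of the lists below stand beside the shares of all genes called higher and lower, which were 7.5% and 7.19% with VIC-1911 at 2 days, 26.7% and 25.7% with it at 7 days, 28.1% and 25.9% with olaparib, and 28.6% and 28% with the combination. In the interaction the shares were 21% higher and 22.9% lower. Medians over all genes lay within 0.02 of 0. Upstream of the pocket proteins, 8 of 9 RB kinase and cyclin genes were tested. All 8 rose with VIC-1911 at 7 days and with olaparib, 6 rose with the combination, and all 8 were called lower in the interaction. Their median log2 fold changes were 0.73, 0.62 and 0.27 with VIC-1911, olaparib and both at 7 days. At 2 days 2 rose and 1 fell (median 0.03). CDK2, the kinase partner of cyclin E, was at 0.88 ± 0.06 with VIC-1911 at 7 days (adjusted p = 1.26e-12) and 0.69 with olaparib, and at −0.38 with VIC-1911 at 2 days. CCND1 (0.35) and CCNE1 (0.35) rose at 2 days. Of the 7 CDK inhibitor genes, CDKN1A (p21) rose in each comparison with vehicle, by a log2 of 1.23 with VIC-1911 at 2 days and of 1.84, 3.04 and 3.31 with VIC-1911, olaparib and both at 7 days. It was higher with both drugs than with olaparib (0.27 ± 0.04, adjusted p = 9.98e-05) or VIC-1911 (1.47), and its interaction was −1.57 ± 0.07 (adjusted p = 1.62e-17). Of this list 1 rose and 3 fell with VIC-1911 at 2 days, 4 rose and 2 fell with it at 7 days, and 1 rose and 2 fell with olaparib and with the combination alike, which for these last is near or below the share of all genes. The list had median log2 fold changes of −0.26, 0.34, −0.29 and −0.11. CDKN1B (p27) was lower with VIC-1911 at 2 days (−0.25) and at 7 days (−0.21), with olaparib (−0.66) and with the combination (−0.72).

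The MuvB core with MYBL1, MYBL2, FOXM1 and DYRK1A, which acts with RBL1, RBL2 and E2F4 or with B-MYB, had 9 tested genes. With VIC-1911 at 2 days 2 fell, MYBL2 (−0.39) and FOXM1 (−0.33). At 7 days 6 rose and 2 fell with VIC-1911, 3 rose with olaparib, and 1 rose and 2 fell with the combination, near or below the share of all genes with these last treatments. The medians were −0.21 with VIC-1911 at 2 days and 0.37, 0.22 and 0.00 in the same order at 7 days. MYBL2 was at 1.54 ± 0.08 with VIC-1911 at 7 days (adjusted p = 4.07e-16) and at 0.86 with olaparib, FOXM1 was at 1.22 and 0.54, and in COMBO cells FOXM1 was at −0.21 (adjusted p = 0.0292). Of 9 partners of E2F6 in Polycomb complex PRC1.6, 2 rose and 1 fell with VIC-1911 at either time, 5 rose and 1 fell with olaparib, and 4 rose and 1 fell with the combination. With VIC-1911 at 7 days both counts were at or below the share of all genes, and the medians were 0.05, 0.12, 0.15 and 0.13. CBX3 was the most clearly changed, at 0.66, 0.64 and 0.66 with VIC-1911, olaparib and both at 7 days. Of 7 germline genes known to be silenced with E2F6, 1 could be tested at 2 days and 2 at 7 days. STAG3 (−0.63, adjusted p = 0.0132) and TDRKH (−0.20, adjusted p = 0.0374) fell with VIC-1911 at 7 days, and neither passed with olaparib. With the combination TDRKH was lower than in vehicle (−0.27, adjusted p = 0.00333), and STAG3 was higher than with VIC-1911 alone (0.88, adjusted p = 0.000646).

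Over the 12 libraries of 7 days, the genes whose log2(FPKM + 0.1) followed E2F1 most closely among 11834 genes were MCM3 (Pearson r = 0.990), MCM10 (0.985), KIAA0101 (0.984), TUBA1B (0.982) and ATP6V1B2 (0.981). E2F8 was followed by NUP205 (0.978), TTK (0.977), OAS3 (0.975), RFC3 (0.970) and NUSAP1 (0.970), and RB1 by PICALM (0.978), PPP6R3 (0.964), CRLF3 (0.945), STK26 (0.941) and GART (0.940). With E2F1 as reference, the members came to 0.917 for E2F8, 0.911 for E2F2, 0.893 for RB1, 0.881 for E2F7, 0.840 for RBL1 and 0.817 for E2F3. In the same order these held ranks 377, 428, 565, 674, 1014 and 1197 among the 11834 genes. Many genes outside the family thus followed E2F1 more closely. E2F6 (0.635), E2F4 (0.627) and E2F5 (0.398) followed it less, and RBL2 ran opposite (−0.643). These correlations are descriptions over libraries that share groups and runs.

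The summed level of the 11 markers of other cells moved with the treatment at 7 days. It was 15.4 to 16.7 FPKM in VEH and 17.3 to 18.4 in VIC libraries. In OLA libraries it was 24.6 to 25.9 and in COMBO libraries 32.3 to 33.4 FPKM. It moved through VIM, ACTA2, CD68 and COL1A1 alone, and its part in the results was not tested. None of these 4 genes passed with VIC-1911 at 7 days. All 4 were called higher with olaparib and with the combination, beside 28.1% and 28.6% of all genes. The summed prostate markers were 4388 to 4425 FPKM in VEH and 2899 to 3306 in the treated libraries at 7 days.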

How the data were processed

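RNA-seq reads of C4-2B cells were, per the study's methods and the labels, trimmed with Trimmomatic and aligned with STAR (2.6.0 in the submitters' processing notes) to GRCh38. The authors deposited raw counts per gene and, separately, FPKM values from an in-house script, each as 1 table per time point. Strand and multi-mapping settings are not given in the sources used here. Dates stood in place of 28 gene names in the counts of each time point (0.182% and 0.193% of counts) and could not be matched to genes.

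Counts were tested with edgeR 4.0.16 (glmQLFit and glmQLFTest, TMM scaling, at least 10 counts in 3 libraries, Benjamini-Hochberg adjustment over all genes, 0.05). The 2-day libraries, the 12 libraries of 7 days, and the VEH and VIC libraries of both times were each fitted together. Their biological coefficients of variation were 3.44%, 4.43% and 3.99%. Alternatives were RLE factors, library size only, no filter, DESeq2 1.42.0, a replicate block, limma 3.58.1 on log2(FPKM + 0.1) or log2(FPKM + 1) (where folds of low genes are understated), each library left out in turn, and fits of the compared groups alone. Levels are means ± SD of FPKM. All 10 members were named throughout, and up to 3 genes per further list by smallest adjusted p. The members and lists were chosen with earlier results of these data known.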

Additional observations from a re-analysis of the deposited data

Results flagged for a closer look

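For 8 members the effects of VIC-1911 with and without olaparib at 7 days differed by the interaction test, all toward a lower effect with olaparib. Of all genes, 22.9% were called lower and 21% higher in this test. The difference of log2 fold changes was −2.29 for E2F2, −2.10 for E2F8, −1.48 for E2F1, −1.24 for E2F7, −1.16 for RBL1, −0.70 for E2F3, −0.49 for E2F6 and −0.45 for RB1. For 6 members the effect of VIC-1911 at 7 days differed from that at 2 days, beside 14.6% of all genes called higher and 14.2% lower. The difference was 1.81 for E2F8, 1.63 for E2F2, 1.46 for E2F1, 1.27 for E2F7, 1.19 for RBL1 and 0.63 for E2F3. For these genes the vehicle libraries were lower at 7 days than at 2 days without overlap, while the VIC libraries of the times overlapped. For E2F3 the VIC overlap was slight, with a highest 2-day library of 10.55 and a lowest 7-day library of 10.54 FPKM. The share of all genes with this pattern was not counted. Time and run cannot be told apart in these levels, which were not tested. Groups of 3 libraries were not tested for a single outlying library.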

How the results depend on the processing

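Of 80 results for single members, 51 passed the test, and 43 of these passed in the same direction under every alternative. None of the 51 changed direction. With VIC-1911 at 2 days the number of members passing moved by 1.5 times or more under DESeq2, from 5 to 3. Over all 12241 genes the calls moved there from 1798 to 847. For the combination against vehicle it did so with library size only, where members passing went from 3 to 5. Over all 14409 genes, calls of higher went there from 4122 to 4776 and calls of lower from 4031 to 3525. With each library left out in turn, members passing ranged from 3 to 5 for VIC-1911 at 2 days, 8 to 9 at 7 days and 7 to 8 for olaparib. They ranged from 2 to 3 for the combination, and from 4 to 5 and 6 to 7 for it against olaparib and VIC-1911. For the interaction they ranged from 7 to 8 and for the difference between the times from 6 to 7. The ratio of activators to repressors came to 1.21, 1.05, 0.80, 1.14, 1.07 and 0.93 in VEH and VIC at 2 days and VEH, VIC, OLA and COMBO at 7 days on TMM-scaled counts, which are not per length. On these counts VEH and VIC overlapped at 2 days, and VIC and OLA at 7 days, where FPKM had kept them apart. Changes of sign were found only for results that did not pass. The interaction for E2F5 turned from 0.01 to −0.0015 with library size only, −0.0092 with no filter, −0.0121 with the replicate block, and −0.0354 and −0.0298 in limma with 0.1 and 1 FPKM added. With each library left out in turn, log2 fold changes with VIC-1911 at 2 days ranged from −0.0224 to 0.0662 for E2F3, from −0.162 to 0.0322 for E2F6 and from −0.0116 to 0.0534 for RB1. Those with olaparib ranged from −0.0258 to 0.0934 for E2F5 and from −0.0149 to 0.1404 for E2F6. For E2F2 with the combination they ranged from −0.0539 to 0.3121, for E2F3 in the combination against olaparib from −0.0448 to 0.0036, and for the interaction of E2F5 from −0.0395 to 0.0924. The causes were not tested. The replicate block changed no call of a member. Deviations from the group means of same-numbered libraries correlated at −0.00287 to 0.0438 at 2 days and −0.0356 to 0.111 at 7 days. The means were 0.0141 and 0.0175, against −0.00708 and −0.00877 for libraries of other numbers. Values this small cannot decide whether replicate numbers pair the libraries. Member counts of 31 to 1565 per library limit the precision of every value.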
